A study of Homo sapiens with 32 samples.

Results

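The 10 genes examined were *SRF*, *VCL*, *ACTB*, *ACTG1*, *TPM1*, *TPM4*, *FHL2*, *FLNA*, *CYR61* (now also called CCN1) and *CTGF* (now also called CCN2). They were selected by name, as known targets of serum response factor or of YAP that encode the actin cytoskeleton, its adhesion sites and matrix-associated signaling proteins, and they are 10 of the 25498 genes in the expression tables. These genes and the pathway lists below were chosen with earlier results of these data known. Their counts beside the share of all genes are therefore descriptive. All 10 of the 10 were above the low-count filter and were among the 16995 genes tested. The data are RNA-Seq profiles of LNCaP, an androgen-sensitive human prostate cancer cell line, in 8 groups of 4 libraries. One group was grown in medium with 10% fetal bovine serum (FBS), for which the labels name no growth factor or time. The other groups were moved the day after plating to medium with 10% charcoal/dextran-treated serum (CSS), which is depleted of steroid hormones. One of them received no growth factor, 3 received 100 ng/ml EGF for 5 min, 1 h or 4 h, and 3 received 100 ng/ml NRG-1 for 5 min, 1 h or 4 h. EGF is a ligand of the receptor EGFR, and NRG-1 is a ligand of HER3, which signals in complex with HER2.

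SRF is a transcription factor that binds a short AT-rich element, the CArG box. It works with several partners: the ternary complex factors ELK1, ELK3 and ELK4, which are phosphorylated by the MAP kinase ERK, and the myocardin-related factors MRTF-A (*MKL1*) and MRTF-B (*MKL2*), which bind monomeric actin and enter the nucleus when actin polymerizes. Many SRF target genes encode actin and proteins that bind it, and *SRF* itself is one of its own targets. YAP and TAZ are coactivators that the Hippo kinases hold in the cytoplasm. In the nucleus they act through the TEAD DNA-binding proteins, and *CYR61* and *CTGF* are their best-known targets in epithelial cells.

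Depth was high and even, with 63822654 to 92401724 expected counts per library and a median of 77866194. Each group was collected in 2 batches of 2 replicates, and values below are listed in the order batch 1 replicate 1, batch 1 replicate 2, batch 2 replicate 1 and batch 2 replicate 2. The batches differed in 9442 genes (55.6% of those tested), so batch was a term in the fits reported here. The LNCaP label matched the 7 luminal prostate markers examined, all of which were present in every library. *KRT5* and *TP63* (basal cells), *COL1A2* and *PDGFRA* (fibroblasts), *DES* and *MYH11* (smooth muscle), *PECAM1* and *CDH5* (endothelium) and *PTPRC* and *CD3E* (leukocytes) were at 0.1 TPM, a level scaled for transcript length and library depth, or lower in all 32 libraries. Other markers of these lists were detected at low levels, with *COL1A1* at 1.36 to 5 TPM, *VWF* at 0.7 to 3.1 TPM, *KRT14* at 0.01 to 2.17 TPM and *LUM* at 0.06 to 0.31 TPM. The summed leukocyte list, nearly all of it *CD68*, was at 12.2 to 16.2 TPM with EGF for 4 h and 6.56 to 10.8 TPM with NRG-1 for 4 h, against 3.24 to 4.02 TPM in CSS. The summed smooth muscle list was at 0.83 to 1.43 TPM with EGF for 1 h against 0.28 to 0.38 TPM in CSS, nearly all of it *ACTG2*, an actin gene.

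The DNA just upstream of these genes is shown because SRF and the TEAD proteins each bind a short DNA motif. RefSeq windows of 250 bases before an annotated transcript start (build GRCh38.p14) were matched to 8 of the 10 genes, in 14 windows. A CArG box was found in windows of 5 genes, *SRF*, *ACTG1*, *TPM4*, *FHL2* and *FLNA*. Such a box was present in 1.16% of the 35116 windows of this length in the table, and in a window of 1.44% of the 27305 genes. The core of the TEAD motif, GGAATG on either strand, was found in windows of 3 genes, *VCL*, *FHL2* and *CTGF*, against 11.9% of all windows and 14.3% of genes. *TPM1* had neither. A match describes the letters in the window and not a bound site. The following 6 sequences, 5′ to 3′ on the strand of the gene and ending at the base before the start, show the first window of *SRF* (chr6:43171019-43171268, plus strand) with its 2 boxes, of *ACTG1* (chr17:81512800-81513049, minus strand), *TPM4* (chr19:16067288-16067537, plus strand) and *FLNA* (chrX:154374635-154374884, minus strand) with 1 box each, of *CTGF* (chr6:131951373-131951622, minus strand) with its 3 TEAD cores, and of *TPM1* (chr15:63048239-63048488, plus strand) with none. Capitals mark CArG boxes and, in *CTGF*, TEAD cores.
SRF: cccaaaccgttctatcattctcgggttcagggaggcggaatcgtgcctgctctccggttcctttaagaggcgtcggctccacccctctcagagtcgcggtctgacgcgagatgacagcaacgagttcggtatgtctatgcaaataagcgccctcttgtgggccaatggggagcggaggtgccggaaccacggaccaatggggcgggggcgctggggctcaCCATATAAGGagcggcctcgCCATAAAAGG
ACTG1: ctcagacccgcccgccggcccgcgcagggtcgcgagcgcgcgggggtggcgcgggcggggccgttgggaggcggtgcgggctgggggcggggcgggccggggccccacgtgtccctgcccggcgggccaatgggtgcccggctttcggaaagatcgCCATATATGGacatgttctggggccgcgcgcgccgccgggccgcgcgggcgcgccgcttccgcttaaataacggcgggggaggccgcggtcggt
TPM4: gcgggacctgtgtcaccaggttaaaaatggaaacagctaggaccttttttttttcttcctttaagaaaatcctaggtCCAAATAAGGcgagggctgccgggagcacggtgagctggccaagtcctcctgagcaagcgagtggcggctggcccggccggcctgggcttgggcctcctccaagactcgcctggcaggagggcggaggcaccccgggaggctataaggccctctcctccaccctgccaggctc
FLNA: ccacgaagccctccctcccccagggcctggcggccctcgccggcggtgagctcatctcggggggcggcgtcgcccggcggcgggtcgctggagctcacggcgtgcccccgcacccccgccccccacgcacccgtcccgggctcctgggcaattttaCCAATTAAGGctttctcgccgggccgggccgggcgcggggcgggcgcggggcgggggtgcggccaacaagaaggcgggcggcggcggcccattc
CTGF: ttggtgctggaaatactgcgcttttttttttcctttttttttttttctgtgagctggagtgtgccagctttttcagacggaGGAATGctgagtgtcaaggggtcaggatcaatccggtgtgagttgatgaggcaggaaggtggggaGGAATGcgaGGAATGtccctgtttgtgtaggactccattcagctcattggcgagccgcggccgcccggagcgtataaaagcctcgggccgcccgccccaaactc
TPM1: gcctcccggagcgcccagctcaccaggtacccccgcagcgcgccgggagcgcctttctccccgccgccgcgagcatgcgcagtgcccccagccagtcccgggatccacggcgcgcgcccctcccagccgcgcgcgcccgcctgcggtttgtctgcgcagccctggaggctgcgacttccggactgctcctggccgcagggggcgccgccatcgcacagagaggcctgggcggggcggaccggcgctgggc

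**Figure D1:**
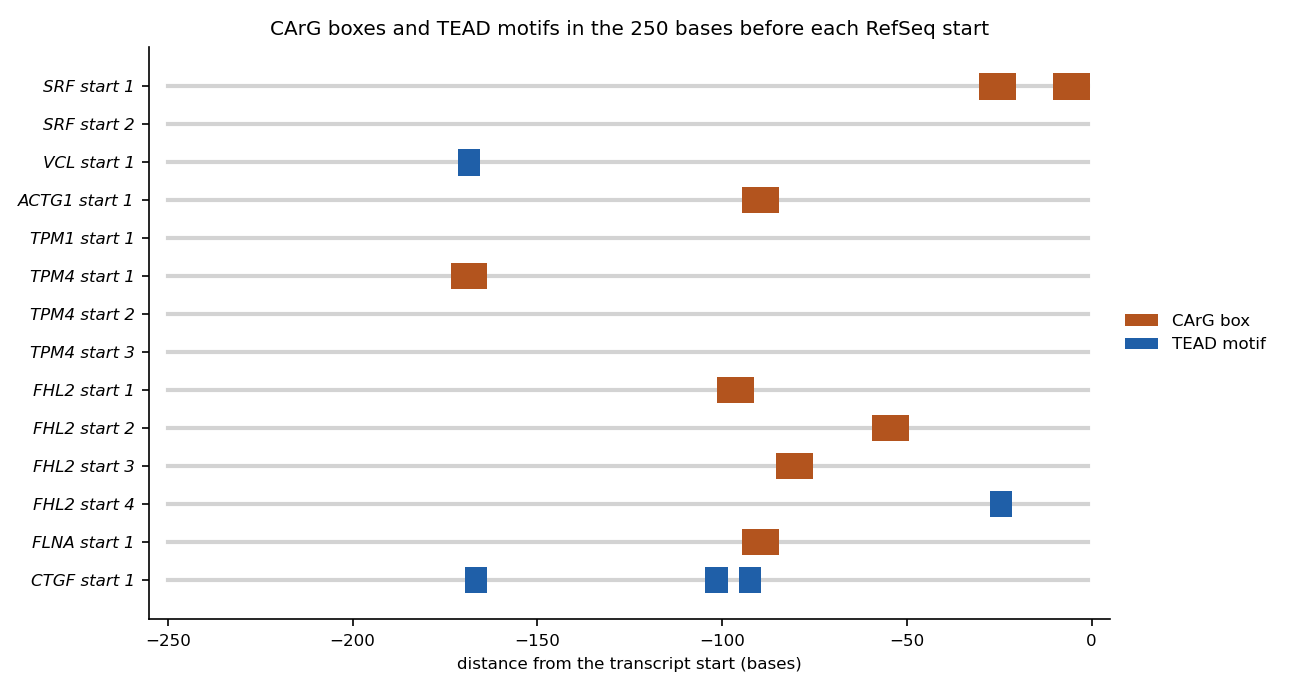
Positions of CArG boxes and of the TEAD core motif in the 250 bases before each matched RefSeq transcript start, with 1 line per start and the distance from the start in bases on the x axis. In SRF both CArG boxes lie within 30 bases of the start, those of ACTG1 and FLNA lie at the same distance, 94 to 85 bases before it, and CTGF has 3 TEAD cores.

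The boxes of *SRF* lay 30 to 21 and 10 to 1 bases before its first start. Those of *ACTG1* and *FLNA* both lay 94 to 85 bases before theirs, and that of *TPM4* lay 173 to 164 bases before the first of 3 starts. The windows of the other starts of *SRF* and *TPM4* had none. *FHL2* had a box before 3 of its 4 starts and a TEAD core before the remaining one. The windows of its starts 1 and 3 overlap and hold the same box.

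Against the CSS controls, 9 of the 10 genes rose with EGF for 1 h, where 6% of all genes tested rose, and 8 rose with NRG-1 for 1 h, against 4.45% of all genes. At 4 h, 7 rose with EGF and 6 with NRG-1, against 24.6% and 21.6% of all genes. None of the 10 fell in these 4 comparisons. The number that rose by more than 1 on the log2 scale, the limit used for a differentially expressed gene (DEG), was 6 with EGF and 5 with NRG-1 at 1 h, where 1.46% and 0.806% of all genes did so, and 4 with each ligand at 4 h, where 5.86% and 4.87% did so. The median log2 fold change of the 10 genes was 1.58 with EGF and 1.17 with NRG-1 at 1 h, and 0.93 and 1.09 at 4 h, while the median of all genes stayed between -0.022 and -0.0045. All 4 libraries lay above all CSS libraries for 8 of the 10 genes at 1 h with each ligand, against 7.46% (EGF) and 4.98% (NRG-1) of all genes. At 4 h this held for 7 with EGF and 6 with NRG-1, against 21.5% and 16%. Because the 10 genes were chosen with earlier results of these data known, the shares of all genes are given for scale only. These 4 comparisons share the CSS libraries, and in bulk RNA a change per cell and a change in the share of cells that express a gene cannot be told apart.

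**Figure D2:**
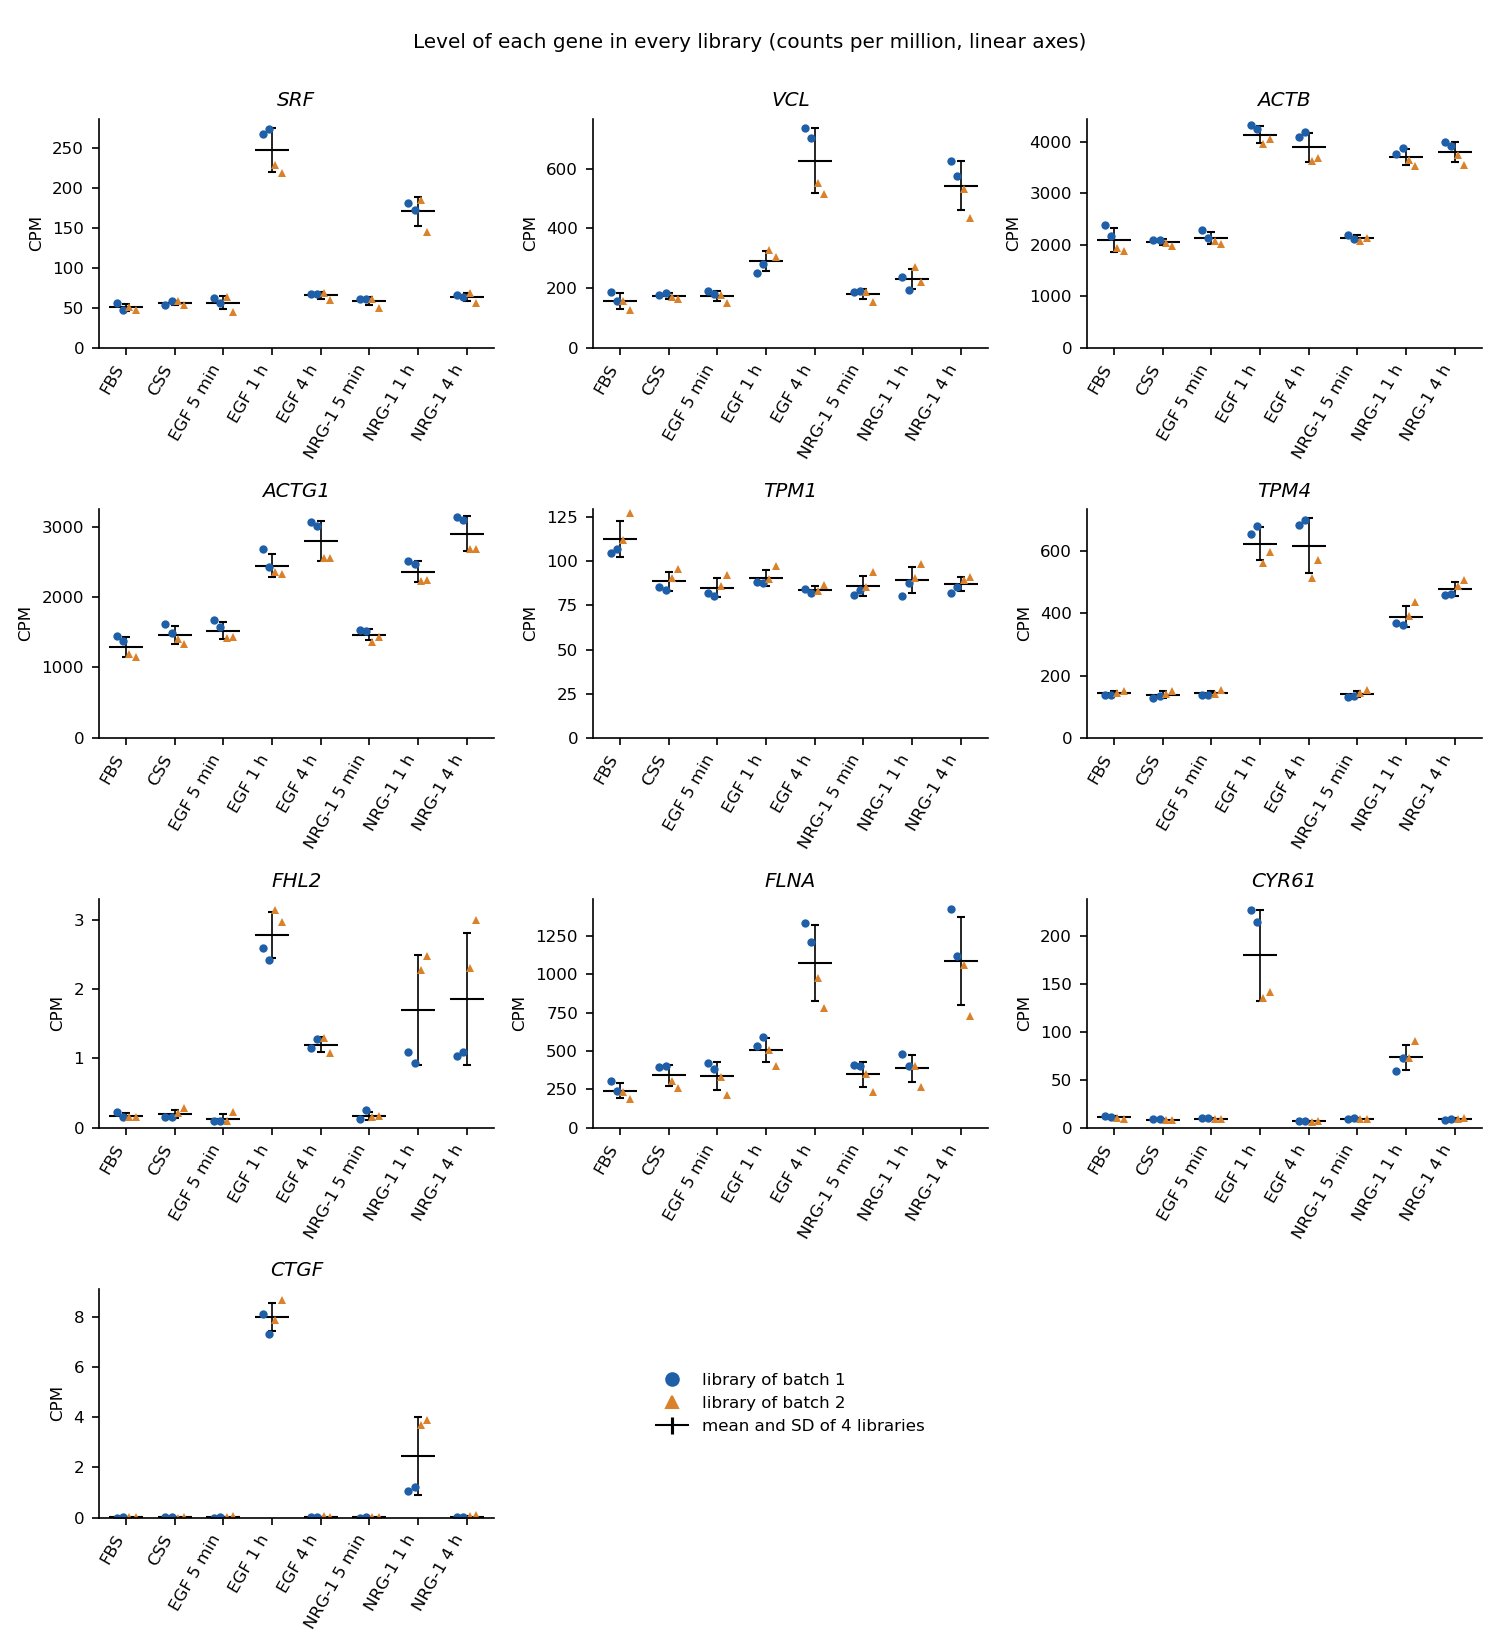
Read counts scaled to library size (CPM) of each of the 10 genes in every library, with 1 panel per gene, linear y axes and the 8 groups on the x axis. Circles are batch 1 libraries, triangles batch 2 libraries, and bars the mean and SD of the 4 libraries. SRF, CYR61 and CTGF are far above CSS at 1 h and not at 4 h, VCL and FLNA are highest at 4 h, ACTB, ACTG1, TPM4 and FHL2 are raised at both times, and TPM1 is highest in FBS.

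The time courses fell into 4 shapes, grouped here after the values were seen and therefore given as a description. *SRF*, *CYR61* and *CTGF* were raised at 1 h and close to CSS at 4 h. *ACTB*, *ACTG1*, *TPM4* and *FHL2* were raised at both times. *VCL* and *FLNA* rose mainly between 1 h and 4 h. *TPM1* did not pass the test against CSS with either ligand.

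*SRF*, the transcription factor itself, rose and fell back within 4 h. It was at 53.5, 57.8, 58.5 and 52.9 CPM (read counts scaled to library size) in the CSS libraries, 268, 274, 229 and 219 CPM with EGF for 1 h and 181, 172, 185 and 144 CPM with NRG-1 for 1 h. Every 1 h library was above every CSS library, and every EGF library was above every NRG-1 library. The rise was 4.43-fold with EGF (log2 fold change 2.15 ± 0.093, where the error is an SE derived from the F statistic of the edgeR test, with adjusted *P* = 5.49e-17). With NRG-1 it was 3.06-fold (log2 fold change 1.61 ± 0.092; adjusted *P* = 5.33e-14). By 4 h it was at 67.3, 66.8, 68.2 and 59.6 CPM with EGF and 65.4, 63.8, 68.0 and 56.3 CPM with NRG-1. The EGF libraries were still above all CSS libraries, by a log2 fold change of 0.23 ± 0.09 (adjusted *P* = 0.033), while the NRG-1 libraries overlapped them and the difference of 0.19 ± 0.09 did not pass (adjusted *P* = 0.101). The small 4 h EGF call was lost when batch was left out of the fit (adjusted *P* = 0.0598) in batch 2 alone (adjusted *P* = 0.436) and on TPM values, at 0.14 (adjusted *P* = 0.447), and the 4 h NRG-1 difference passed with the replicate block (adjusted *P* = 0.0118). The 4 h EGF call was also lost without CSS batch 1 replicate 1 (adjusted *P* = 0.106), EGF 4 h batch 1 replicate 1 (adjusted *P* = 0.0537), CSS batch 1 replicate 2 (adjusted *P* = 0.0585), EGF 4 h batch 2 replicate 1 (adjusted *P* = 0.108) or CSS batch 2 replicate 2 (adjusted *P* = 0.0676). In the order of levels, the 6 groups other than those at 1 h lay between 50.4 CPM (FBS) and 65.5 CPM (EGF for 4 h) on average, and each overlapped its neighbor.

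*CYR61* and *CTGF* encode secreted matrix-associated proteins of the CCN family. *CYR61* was at 8.62, 8.87, 7.51 and 8.48 CPM in CSS and at 227, 215, 136 and 142 CPM with EGF for 1 h, a 21.4-fold rise (log2 fold change 4.42 ± 0.14; adjusted *P* = 4.74e-20). With NRG-1 for 1 h it was at 59.0, 72.4, 73.1 and 90.7 CPM, an 8.88-fold rise (log2 fold change 3.15 ± 0.13; adjusted *P* = 7.37e-17). The 3 groups did not overlap, and within the EGF group the batch 1 libraries were higher than the batch 2 libraries. At 4 h *CYR61* was back at 7.00, 6.90, 6.28 and 7.09 CPM with EGF and 8.05, 8.92, 9.25 and 9.62 CPM with NRG-1. All 4 EGF libraries were then below all 4 CSS libraries, a pattern seen in 19.7% of all genes tested. The log2 difference of -0.30 ± 0.13 did not pass the test across all groups (adjusted *P* = 0.0657) and passed when only these groups were fitted (adjusted *P* = 0.00399). The NRG-1 libraries overlapped CSS (0.10 ± 0.13; adjusted *P* = 0.568).

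*CTGF* went from almost no reads to a clear signal. In the 4 CSS libraries it had 1, 3, 0 and 2 counts, 6 in all. With EGF for 1 h it had 644, 519, 645 and 599 counts, or 8.09, 7.32, 7.87 and 8.66 CPM, and with NRG-1 for 1 h 80, 92, 330 and 331 counts, or 1.06, 1.20, 3.67 and 3.89 CPM. Relative to CSS, and scaled for depth, the summed counts were higher by a ratio of 433 (95% counting interval 198 to 1180.0) with EGF and 138 (95% counting interval 63.1 to 377) with NRG-1, intervals that cover counting error only. The fitted log2 fold changes, 8.74 ± 0.41 and 6.87 ± 0.45 (adjusted *P* = 3.46e-16 and 1.38e-12), depend on the prior count that the fit adds to such a low control. They moved to 9.46 and 7.57 without CSS batch 1 replicate 2, which held 3 of the 6 counts (4 h values 1.53 and 1.90), and the NRG-1 value moved to 6.28 without CSS batch 2 replicate 1, which held none. The ± errors of the fitted values give narrower intervals than counting error alone and understate the uncertainty from the 6 CSS counts. At 4 h the EGF libraries held 2, 2, 4 and 2 counts and the NRG-1 libraries 1, 1, 4 and 6, ratios of 1.79 (95% counting interval 0.590 to 5.99) and 2.35 (95% counting interval 0.816 to 7.63), and neither difference passed (adjusted *P* = 0.529 and 0.338). In FBS *CTGF* had 0, 3, 1 and 1 counts, as low as in CSS. Levels above 1 CPM were thus seen in the 8 libraries taken at 1 h.

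The 2 cytoplasmic actin genes, which encode the subunits of actin filaments in nonmuscle cells, were by far the most abundant of the 10 and rose by up to 2.02-fold at 1 h. In TPM, which is scaled for transcript length, *ACTB* was at 2157 ± 178 (mean ± SD, n = 4) and *ACTG1* at 1391 ± 174 in CSS, while the other 8 genes lay between 0.0175 TPM (*CTGF*) and 98.5 TPM (*TPM1*). *ACTB* was at 2093, 2097, 2038 and 1976 CPM in CSS. With EGF it was at 4319, 4238, 3952 and 4046 CPM at 1 h and 4087, 4181, 3620.0 and 3689.7 CPM at 4 h, and with NRG-1 at 3756, 3878, 3645 and 3525 CPM at 1 h and 4002, 3918, 3739 and 3549 CPM at 4 h. All libraries of both ligands at 1 h and 4 h were above all CSS and FBS libraries. Its log2 fold change was 1.01 ± 0.045 and 0.92 ± 0.045 with EGF at 1 h and 4 h, and 0.85 ± 0.045 and 0.89 ± 0.045 with NRG-1 (adjusted *P* from 9e-17 to 9.01e-15). In the order of group means each raised group overlapped its neighbor, but every EGF library at 1 h was above every NRG-1 library at 1 h.

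*ACTG1* was at 1622, 1497, 1405 and 1329 CPM in CSS. It was at 2688, 2428, 2352 and 2331 CPM with EGF for 1 h and 3071, 3016, 2558 and 2557 CPM for 4 h, and at 2516, 2468, 2223 and 2241 CPM with NRG-1 for 1 h and 3145, 3095, 2684 and 2688 CPM for 4 h. Here too every library of these 4 groups was above every CSS library, and at each time the EGF and NRG-1 libraries overlapped. The log2 fold change went from 0.75 ± 0.043 at 1 h to 0.93 ± 0.043 at 4 h with EGF, and from 0.69 ± 0.043 to 0.99 ± 0.043 with NRG-1 (adjusted *P* from 6.78e-17 to 4.73e-13). The 2 coding sequences are nearly identical and both genes have many processed pseudogenes, so the division of reads between them was estimated by the counting program and each value is uncertain to that extent. Summed into 1 gene, the pair kept its calls against CSS at 1 h and 4 h with both ligands.

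Tropomyosins lie along actin filaments and set which proteins reach them. Of the 2 tropomyosin genes, *TPM4* rose with both ligands and *TPM1* passed with neither. *TPM4* was at 127, 133, 142 and 152 CPM in CSS, 655, 682, 564 and 598 CPM with EGF for 1 h and 684, 701, 515 and 573 CPM with EGF for 4 h. With NRG-1 it was at 368, 362, 393 and 437 CPM at 1 h and 459.9, 464, 487 and 506 CPM at 4 h. All 16 of these libraries were above all CSS libraries, the EGF libraries at both times were above the NRG-1 libraries, and the NRG-1 libraries at 4 h were above those at 1 h. The rise was 4.52-fold and 4.47-fold with EGF at 1 h and 4 h (log2 fold change 2.18 ± 0.085 and 2.16 ± 0.085), and it was 2.82-fold and 3.46-fold with NRG-1 (1.49 ± 0.084 and 1.79 ± 0.084), with adjusted *P* from 3.51e-18 to 3.58e-14. With EGF for 4 h the rise was smaller in batch 2, with a batch 2 minus batch 1 difference of -0.52 on the log2 scale (adjusted *P* = 0.0339 for a batch-by-group interaction tested after the data were seen).

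*TPM1* was at 85.3, 83.9, 90.3 and 95.4 CPM in CSS, 88.1, 87.5, 90.0 and 97.2 CPM with EGF for 1 h and 84.3, 82.0, 83.1 and 86.6 CPM with EGF for 4 h. With NRG-1 it ranged over 80.2 to 98.5 CPM at 1 h and 82.2 to 91.1 CPM at 4 h. All 4 of these groups overlapped CSS. The log2 fold changes lay between -0.077 (EGF for 4 h; 95% interval -0.17 to 0.02) and 0.032 (EGF for 1 h; -0.064 to 0.13), and none passed. When the TPM values were tested instead with limma, the 4 h EGF difference was -0.15 and passed (adjusted *P* = 0.0233). Tropomyosin genes share similar exons, so their counts also depend on how reads were divided.

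*VCL* encodes vinculin, which links integrin adhesions to actin, and *FLNA* encodes filamin A, which cross-links actin filaments and carries them to membrane receptors. Both rose late. *VCL* was at 177, 184, 169.7 and 163 CPM in CSS, 249.6, 279, 328 and 306 CPM with EGF for 1 h and 737, 703, 553 and 517 CPM with EGF for 4 h. With NRG-1 it was at 237, 194, 272 and 221 CPM at 1 h and 627, 578, 532 and 435 CPM at 4 h. Each step from CSS to 1 h to 4 h left no overlap for either ligand, whereas the EGF and NRG-1 libraries overlapped each other at both times. The log2 fold change with EGF was 0.75 ± 0.12 at 1 h and 1.85 ± 0.12 at 4 h (adjusted *P* = 3.02e-05 and 3.53e-13), and with NRG-1 0.42 ± 0.12 and 1.64 ± 0.12 (adjusted *P* = 0.0266 and 6.01e-12). The 1 h NRG-1 call was lost within each batch (adjusted *P* = 0.143 in batch 1 and 0.152 in batch 2) and on TPM values (adjusted *P* = 0.381). It was also lost without CSS batch 1 replicate 1 (adjusted *P* = 0.0739), CSS batch 1 replicate 2 (adjusted *P* = 0.0575), CSS batch 2 replicate 1 (adjusted *P* = 0.0542), NRG-1 1 h batch 2 replicate 1 (adjusted *P* = 0.147), CSS batch 2 replicate 2 (adjusted *P* = 0.0709) or NRG-1 1 h batch 2 replicate 2 (adjusted *P* = 0.0511).

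*FLNA* was at 395, 405, 304 and 259 CPM in CSS. With EGF it was at 534, 589, 505 and 404 CPM at 1 h and 1336, 1212, 973 and 782 CPM at 4 h, and with NRG-1 at 479.5, 402, 399.7 and 266 CPM at 1 h and 1428, 1119.6, 1058 and 728 CPM at 4 h. The 4 h libraries of both ligands were above all CSS libraries, whereas the 1 h libraries overlapped CSS, and in all 8 groups of the study the highest library was in batch 1 and the lowest was batch 2 replicate 2. The log2 fold change at 4 h was 1.66 ± 0.15 with EGF (adjusted *P* = 1.57e-10) and 1.67 ± 0.15 with NRG-1 (adjusted *P* = 1.98e-10). At 1 h it was 0.59 ± 0.14 with EGF, which passed (adjusted *P* = 0.00526), and 0.19 ± 0.14 with NRG-1, which did not (adjusted *P* = 0.565). The 1 h EGF call was lost without the batch term (adjusted *P* = 0.172), in batch 2 alone (adjusted *P* = 0.405) and on TPM values (adjusted *P* = 0.0689).

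*FHL2* encodes a LIM-domain protein that binds SRF and actin-associated proteins. It was a low-abundance gene, with 9 to 23 counts in each FBS and CSS library, and the largest riser after *CTGF* and *CYR61* at 1 h. It was at 0.157, 0.158, 0.210 and 0.279 CPM in CSS and at 2.60, 2.42, 3.15 and 2.97 CPM with EGF for 1 h, falling to 1.15, 1.27, 1.30 and 1.07 CPM at 4 h. With NRG-1 it was at 1.10, 0.929, 2.28 and 2.48 CPM at 1 h and 1.04, 1.10, 2.31 and 3.00 CPM at 4 h. All of these were above CSS, and in both NRG-1 groups the batch 2 libraries were all above the batch 1 libraries. In the order of group means the 4 raised groups overlapped their neighbors. The log2 fold change was 3.81 ± 0.27 and 2.62 ± 0.29 with EGF at 1 h and 4 h, and 3.03 ± 0.28 and 3.15 ± 0.28 with NRG-1 (adjusted *P* from 7.86e-12 to 1.09e-08). By summed counts the ratio to CSS was 13.8 (95% counting interval 10.7 to 18.0) with EGF and 8.59 (95% counting interval 6.65 to 11.3) with NRG-1 at 1 h, again with counting error only.

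**Figure D3:**
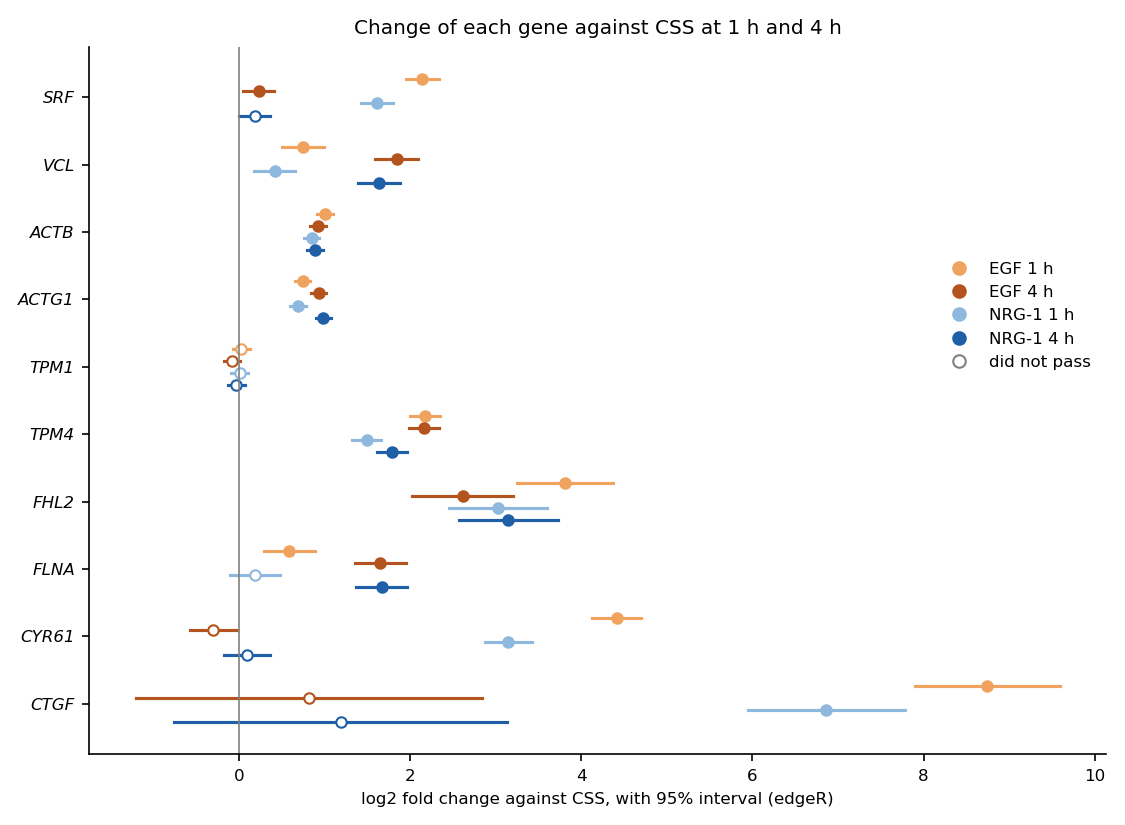
Log2 fold change of each of the 10 genes against CSS (x axis) for both ligands at 1 h and 4 h. Points are edgeR estimates, lines their 95% intervals, and open points did not pass the test. The 1 h lines of CTGF are narrower than its 95% counting intervals. SRF, CYR61 and CTGF sit far to the right at 1 h and near 0 at 4 h, although the 4 h intervals of CTGF are wide, and VCL and FLNA sit further right at 4 h than at 1 h.

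The change between 1 h and 4 h was tested directly. With EGF, 3 genes rose from 1 h to 4 h, where 22.5% of all genes rose, and 4 fell, where 21.5% fell. Those that rose were *VCL* (log2 fold change 1.09 ± 0.12), *FLNA* (1.06 ± 0.14) and *ACTG1* (0.19 ± 0.043), and those that fell were *CTGF* (-7.92 ± 0.38), *CYR61* (-4.71 ± 0.14), *SRF* (-1.91 ± 0.093) and *FHL2* (-1.19 ± 0.22), all with adjusted *P* of 0.000627 or lower. The rise of *ACTG1* was lost when *ACTB* and *ACTG1* were summed (0.021; adjusted *P* = 0.73), without the batch term (adjusted *P* = 0.0858), in batch 2 alone (adjusted *P* = 0.22) and on TPM values, at 0.081 (adjusted *P* = 0.469). With NRG-1, 4 genes rose and 3 fell, against 19% and 18.5% of all genes. The risers were *FLNA* (1.48 ± 0.15), *VCL* (1.22 ± 0.12), *TPM4* (0.30 ± 0.082) and *ACTG1* (0.30 ± 0.043), and the fallers were *CTGF* (-5.67 ± 0.41), *CYR61* (-3.05 ± 0.13) and *SRF* (-1.43 ± 0.091), with adjusted *P* of 0.00439 or lower. The *CTGF* values again rest on few counts at 4 h, and their ± errors understate the uncertainty. *TPM1* did not pass with EGF (log2 fold change -0.11 ± 0.047; adjusted *P* = 0.0628) but did so without EGF 4 h batch 1 replicate 1 (adjusted *P* = 0.0407) or EGF 1 h batch 2 replicate 1 (adjusted *P* = 0.0363). It also passed with DESeq2 (adjusted *P* = 0.0341), with a minimum of 10 counts (adjusted *P* = 0.0167), with the replicate block (adjusted *P* = 0.0128), when only the groups compared were fitted (adjusted *P* = 0.0326) and on TPM values, at -0.22 (adjusted *P* = 0.00152). *FHL2* did not pass with NRG-1 (log2 fold change 0.12 ± 0.22; 95% interval -0.33 to 0.56).

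Whether this change over time differed between the ligands was tested as an interaction, which was lower with EGF in 2 genes against 0.353% of all genes. *CYR61* fell further with EGF than with NRG-1, a difference of -1.66 ± 0.18 on the log2 scale (adjusted *P* = 4.99e-06). For *FHL2* the difference was -1.31 ± 0.31 (adjusted *P* = 0.0464). Each value equals the difference between the ligands at 4 h minus that at 1 h, for *CYR61* -0.40 and 1.27. It thus contains the 1 h difference given below and is not a separate result. The *FHL2* call was lost in either batch alone (adjusted *P* = 0.0815 and 0.359), and the *CYR61* call was lost in batch 2 alone (-1.26; adjusted *P* = 0.0603). Leaving out any 1 of 11 libraries also ended the *FHL2* call (adjusted *P* from 0.0549 to 0.168), namely EGF 1 h batch 1 replicate 1, EGF 4 h batch 1 replicate 1, NRG-1 1 h batch 1 replicate 1, EGF 1 h batch 1 replicate 2, NRG-1 1 h batch 1 replicate 2, EGF 1 h batch 2 replicate 1, EGF 4 h batch 2 replicate 1, NRG-1 4 h batch 2 replicate 1, EGF 1 h batch 2 replicate 2, EGF 4 h batch 2 replicate 2 or NRG-1 4 h batch 2 replicate 2. The *SRF* difference (-0.49 ± 0.13; adjusted *P* = 0.0935) passed without NRG-1 1 h batch 2 replicate 1 (adjusted *P* = 0.0459), with DESeq2 (adjusted *P* = 0.0283) and in batch 1 alone (adjusted *P* = 0.0134). For *CTGF* the difference was -2.25 ± 0.93 and did not pass (adjusted *P* = 0.641), whereas on TPM values it was -1.50 and passed (adjusted *P* = 1.7e-05). With the replicate block *SRF* and *FLNA* also passed (adjusted *P* = 0.000944 and 0.0437).

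At 1 h, 4 of the 10 genes were higher with EGF than with NRG-1, against 0.941% of all genes tested, and none was lower, against 0.118%. They were *CTGF* (log2 difference 1.88 ± 0.22, 3.67-fold; adjusted *P* = 3.07e-06), *CYR61* (1.27 ± 0.12, 2.40-fold; adjusted *P* = 1.17e-07), *TPM4* (0.68 ± 0.082; adjusted *P* = 3.3e-06) and *SRF* (0.53 ± 0.089; adjusted *P* = 0.000521). *FHL2* differed by 0.78 ± 0.21 and *ACTB* by 0.16 ± 0.045 without passing (adjusted *P* = 0.0816 and 0.0889). For *VCL*, *ACTG1*, *TPM1* and *FLNA* the 95% intervals of the difference were 0.089 to 0.58, -0.035 to 0.14, -0.074 to 0.12 and 0.11 to 0.70. All 10 estimates were above 0, where the median of all genes was -0.0004, but the intervals of *ACTG1* and *TPM1* span 0. The 10 genes were measured in the same libraries, so their directions are not independent.

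The size of the difference between ligands depended on the batch for 1 gene. For *CYR61* it was 1.76 in batch 1 (adjusted *P* = 2.79e-09) and 0.77 in batch 2 (adjusted *P* = 0.0497), and the batch 2 minus batch 1 difference was -0.99 (interaction chosen after the data were seen, adjusted *P* = 0.00732). *CTGF* showed the same order, 2.77 in batch 1 (adjusted *P* = 1e-06) and 1.14 in batch 2 (adjusted *P* = 0.0993), but the gap between the batches did not pass (-1.64; adjusted *P* = 0.149). *TPM4* differed by 0.88 in batch 1 (adjusted *P* = 2.13e-08) and 0.49 in batch 2 (adjusted *P* = 0.143). *SRF* differed by 0.62 (adjusted *P* = 9.73e-05) and 0.45 (adjusted *P* = 0.908). *FHL2* passed in batch 1 alone (1.32; adjusted *P* = 0.000627) and not in batch 2 (0.37; adjusted *P* = 0.908). The *FHL2* difference also passed without NRG-1 1 h batch 2 replicate 2 (adjusted *P* = 0.047). A fit within 1 batch rests on 2 libraries per group. With the replicate block *ACTB*, *FHL2* and *FLNA* passed as well (adjusted *P* = 0.0272, 0.0328 and 0.00065), giving 7 genes in place of 4.

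**Figure D4:**
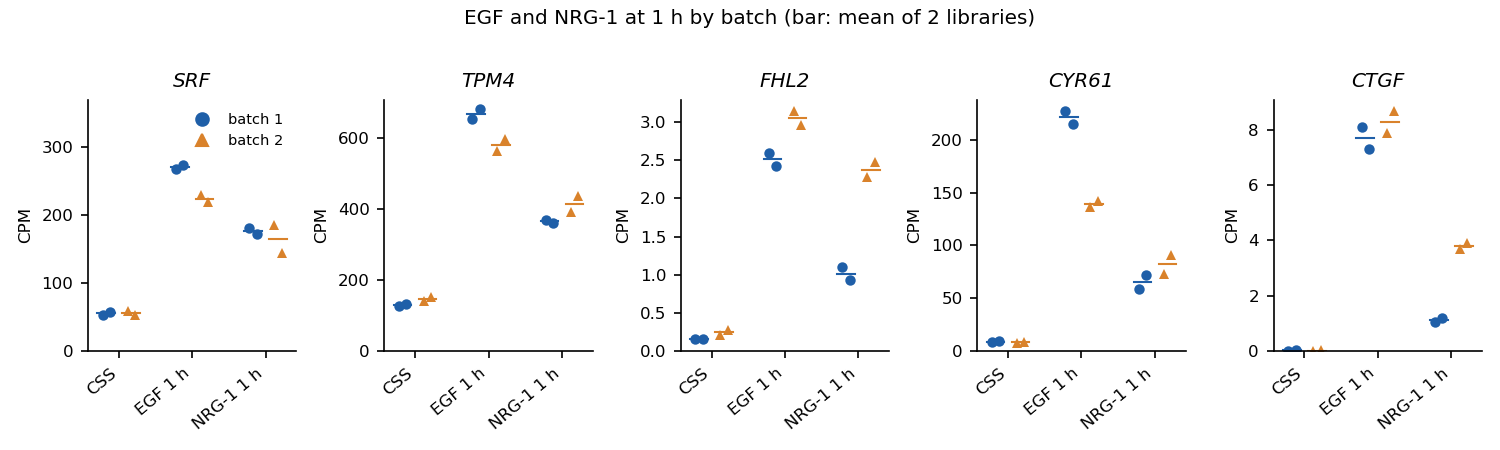
CPM of SRF, TPM4, FHL2, CYR61 and CTGF in CSS and at 1 h of EGF or NRG-1, on linear y axes, with circles for batch 1, triangles for batch 2 and bars for the mean of the 2 libraries of a batch. EGF libraries are above NRG-1 libraries in both batches for all 5 genes, and the gap between the batch means is narrower in batch 2 for all 5.

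At 4 h the ligands differed in 1 of the 10 genes, against 1.25% of all genes that were higher with EGF. *TPM4* was higher with EGF by 0.37 ± 0.082 (adjusted *P* = 0.0135). The difference was 0.59 in batch 1 (adjusted *P* = 4.37e-06) and 0.14 in batch 2 (adjusted *P* = 0.887), and it did not pass when only these groups were fitted (adjusted *P* = 0.18) or without EGF for 4 h batch 1 replicate 1 or 2 (adjusted *P* = 0.104 and 0.102). For *VCL* and *FLNA*, the late risers, the 95% intervals of the difference were -0.037 to 0.45 and -0.31 to 0.28.

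Full serum was compared with stripped serum by setting the FBS group against CSS. Both media held 10% serum, so this was not a comparison of serum with none. The paper also describes a wash and a change of medium for the cells moved to CSS. Of the 10 genes 2 were higher in FBS and 2 were lower, against 26% and 26.8% of all genes, and none changed by more than 1 on the log2 scale. *TPM1*, for which no ligand comparison with CSS passed, was at 105, 107, 112 and 127 CPM in FBS. All 4 FBS libraries were above all CSS libraries, a pattern seen in 17.7% of all genes tested. The log2 difference of *TPM1* was 0.34 ± 0.047 (adjusted *P* = 5.31e-07), and it was 0.14 on TPM values and still passed. *CYR61* was at 12.4, 11.5, 9.95 and 8.96 CPM, all above CSS, and higher by 0.35 ± 0.13 (adjusted *P* = 0.0243), a call that was lost on TPM values (adjusted *P* = 0.382) and in batch 2 alone (adjusted *P* = 0.142). It was lost as well without FBS batch 1 replicate 1 (adjusted *P* = 0.0812), FBS batch 1 replicate 2 (adjusted *P* = 0.0512) or CSS batch 2 replicate 1 (adjusted *P* = 0.0652). *FLNA* was at 306, 241, 231 and 190.1 CPM, overlapped CSS and was lower with a log2 difference of -0.48 ± 0.14 (adjusted *P* = 0.00595). *ACTG1* was also lower, at -0.19 ± 0.043 (adjusted *P* = 0.000668), but summed with *ACTB* the difference was -0.058 and did not pass (adjusted *P* = 0.26). The calls of *ACTG1* and *FLNA* were also lost without the batch term (adjusted *P* = 0.09 and 0.0807).

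Set against FBS instead of CSS, the ligand groups were tested in the same way. At 1 h, 9 of the 10 genes were higher and *TPM1* was lower with either ligand, against 29.7% and 29.4% of all genes higher and lower for EGF and 26.4% and 25% for NRG-1. At 4 h, 7 were higher with either ligand, against 31.5% and 31% of all genes higher and lower for EGF and 29.4% and 27.8% for NRG-1. On TPM values the 1 h EGF difference of *TPM1* went from -0.31 ± 0.047 to -0.07 and did not pass (adjusted *P* = 0.242). At 4 h *TPM1* was again lower, with log2 differences of -0.42 ± 0.047 (EGF) and -0.37 ± 0.047 (NRG-1; adjusted *P* = 8.74e-09 and 1.03e-07). *CYR61* was lower than in FBS with EGF for 4 h, at -0.65 ± 0.13 (adjusted *P* = 0.000108), and with NRG-1 for 4 h the difference of -0.25 ± 0.13 did not pass (adjusted *P* = 0.105). *CTGF* rose from its few counts in FBS, with fitted values of 8.81 ± 0.42 (EGF) and 6.93 ± 0.47 (NRG-1) at 1 h, which became 9.76 and 7.88 without FBS batch 1 replicate 2. The ± errors again understate the uncertainty from so few counts. The comparisons with FBS and with CSS share the ligand libraries.

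After 5 min of either ligand, 0 of the 10 genes passed the edgeR test in either direction. Of all genes, 0.00588% were higher and 0% lower with EGF, which is 1 gene, and 0% in both directions with NRG-1. At an unadjusted *P* under 0.05 there were 0 of the 10 genes with either ligand, against 251 of all genes with EGF and 324 with NRG-1, and DESeq2 called 0 of the 10 genes and 2 and 1 of all genes. *SRF* was at 45.0 to 63.9 CPM with EGF and 50.1 to 61.1 CPM with NRG-1, and *CYR61* at 8.73 to 10.2 CPM and 8.74 to 10.0 CPM. All of these ranges overlapped CSS. Set against the CSS library of the same batch and number, *CYR61* was higher in 4 of 4 libraries with each ligand, and with the replicate block its adjusted *P* was 1 with EGF and 0.95 with NRG-1. *ACTB* was also higher in 4 of 4 libraries with each ligand, and *TPM1* was lower in 4 of 4. These genes were picked after the values were seen, and both ligands share the CSS libraries. The share of all genes with such a pattern was not counted. The 95% intervals of the log2 difference from CSS were -0.17 to 0.20 and -0.12 to 0.25 for *SRF* and -0.094 to 0.44 and -0.13 to 0.40 for *CYR61*.

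The regulators that act with SRF were themselves measured. *MYOCD*, the muscle cofactor, was at 0.0075 TPM or lower in every group mean and was not tested. In CSS, *MKL1* was at 8.37 ± 1.13 TPM, *MKL2* at 18.9 ± 2.64 TPM, *ELK1* at 36.3 ± 3.28 TPM, *ELK3* at 5.96 ± 0.928 TPM and *ELK4* at 18.1 ± 2.32 TPM. Of these 5, *ELK1* alone rose, by 0.29 ± 0.05 on the log2 scale with EGF for 1 h and 0.65 ± 0.051 for 4 h (adjusted *P* = 0.000121 and 9.69e-12), and by 0.26 ± 0.05 and 0.59 ± 0.051 with NRG-1 (adjusted *P* = 0.00086 and 1.07e-10). The share of all genes that rose was 6% and 24.6% with EGF at 1 h and 4 h, and 4.45% and 21.6% with NRG-1. At 4 h 2 of the 5 fell with each ligand, against 24.6% of all genes with EGF and 21% with NRG-1: *ELK4* (log2 fold change -0.50 ± 0.08 with EGF and -0.57 ± 0.08 with NRG-1) and *MKL2* (-0.39 ± 0.12 and -0.60 ± 0.12). In FBS 0 of the 5 were higher and 3 lower than in CSS, against 26% and 26.8% of all genes. These are mRNA levels and give no measure of the location or phosphorylation of the proteins.

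Other targets of actin, MRTF and SRF were counted next, in a list made with earlier results of these data known. Of 21 such genes, all tested, 8 rose and 0 fell with EGF for 1 h, and 15 rose and 0 fell at 4 h, where the share of all genes that rose was 6% and 24.6%. With NRG-1, 4 rose at 1 h and 16 at 4 h, against 4.45% and 21.6% of all genes, and none fell. Their median log2 fold change was 0.23 and 0.86 with EGF at 1 h and 4 h, and 0.14 and 0.65 with NRG-1. *ZYX*, which encodes the focal adhesion protein zyxin, rose by 1.85 ± 0.069 and 2.76 ± 0.072 with EGF at 1 h and 4 h and by 1.42 ± 0.069 and 2.72 ± 0.072 with NRG-1, and *CNN2* (calponin 2, an actin-binding protein) by 1.74 ± 0.062, 1.73 ± 0.062, 1.21 ± 0.061 and 1.49 ± 0.062. *PDLIM5*, a PDZ and LIM domain protein of actin fibers, was among the late risers, at 1.78 ± 0.069 with EGF and 1.53 ± 0.069 with NRG-1 for 4 h. *ACTA2* (smooth muscle actin) rose by 0.94 ± 0.13 with EGF for 1 h, and *WDR1*, a cofactor of actin disassembly, by 0.54 ± 0.055 with NRG-1 for 1 h. Adjusted *P* for these changes was 5.6e-06 or lower. In FBS 2 of the 21 were higher and 4 lower than in CSS, against 26% and 26.8% of all genes, with *TAGLN2* (transgelin 2) higher by 1.02 ± 0.062 and *ZYX* lower, at -0.85 ± 0.068. The summed *ACTG2*-led smooth muscle list and the *CD68*-led leukocyte list given above moved with the same groups, while the defining smooth muscle and leukocyte genes were near 0, and their part in these values was not tested.

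Of 12 focal adhesion genes that work with vinculin, 1 rose with EGF for 1 h and 7 at 4 h, and 1 and 6 rose with NRG-1, with none lower in these comparisons. The share of all genes that rose was 6% and 24.6% for EGF at 1 h and 4 h, and 4.45% and 21.6% for NRG-1. The riser at 1 h was *VASP*, which elongates actin filaments, by 0.79 ± 0.062 after EGF and 0.57 ± 0.062 after NRG-1 (adjusted *P* = 4.85e-11 and 8.41e-08). *PXN* (paxillin) and *BCAR1* (an adaptor of focal adhesion kinase) rose with EGF for 4 h, by 0.69 ± 0.097 and 0.64 ± 0.085. In FBS 2 of the 12 were higher and 7 lower than in CSS, against 26% and 26.8% of all genes.

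Other targets of YAP, TAZ and TEAD were counted in the same way. Of 21 listed, 18 were tested. With EGF 4 rose and 1 fell at 1 h, against 6% and 3.51% of all genes, and 4 rose and 6 fell at 4 h, against 24.6% and 24.6%. With NRG-1 3 rose and 1 fell at 1 h, against 4.45% and 2.28%, and 4 rose and 6 fell at 4 h, against 21.6% and 21%. The medians with EGF were 0.024 at 1 h and -0.12 at 4 h, and those with NRG-1 were -0.03 and -0.13. Risers at 1 h included *AMOTL2* and *LATS2*, both feedback inhibitors of YAP, by 0.66 ± 0.094 and 0.58 ± 0.083 after EGF and 0.34 ± 0.094 and 0.40 ± 0.083 after NRG-1. The faller at 1 h was the kinase gene *NUAK2*, at -2.67 ± 0.12 after EGF and -1.78 ± 0.12 after NRG-1 (adjusted *P* = 2.59e-16 and 1.05e-12). At 4 h *CRIM1*, which encodes a membrane protein that binds growth factors, rose by 2.55 ± 0.18 and 2.19 ± 0.18. Fallers at 4 h included *IGFBP3* (-1.36 ± 0.22 with EGF and -0.80 ± 0.22 with NRG-1) and *NUAK2* (-0.91 ± 0.11 and -0.69 ± 0.11). In FBS 1 of the 18 was higher and 10 were lower than in CSS, against 26% and 26.8% of all genes. *ANKRD1*, a common YAP reporter gene named here after its level was seen, had at most 1 count in any library.

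Components of the Hippo pathway were counted too. Of 15 components, 0 of 15 passed the edgeR test with either ligand at 1 h. Of all genes, 6% rose and 3.51% fell with EGF and 4.45% and 2.28% with NRG-1, so few of 15 would be expected to pass. At an unadjusted *P* under 0.05 there was 1 of the 15 with EGF and 0 with NRG-1, and DESeq2 called 0 and 0. At 4 h 5 rose and 7 fell with EGF, against 24.6% and 24.6% of all genes, and 5 rose and 4 fell with NRG-1, against 21.6% and 21%. *YAP1* was at 58.8 ± 7.62 TPM in CSS and 71.2 ± 5.35 TPM with EGF for 4 h (log2 fold change 0.35 ± 0.06; adjusted *P* = 1.38e-05), and *WWTR1*, which encodes TAZ, was low at 0.200 ± 0.0294 TPM in CSS. *TEAD1*, *TEAD4* and *TEAD3* rose at 4 h by 1.11 ± 0.14, 0.81 ± 0.068 and 0.70 ± 0.1 with EGF and by 0.89 ± 0.13, 0.75 ± 0.068 and 0.70 ± 0.1 with NRG-1. Fallers at 4 h included *AMOT* (-0.64 ± 0.11 with EGF and -0.53 ± 0.11 with NRG-1) and *LATS1* (-0.30 ± 0.066 and -0.36 ± 0.066). In FBS *YAP1* was at 30.8 ± 4.50 TPM, lower than in CSS at a log2 difference of -0.73 ± 0.061 (adjusted *P* = 3.47e-11), and *WWTR1* was at 0.877 ± 0.150 TPM. Of the 15 components 2 were higher and 8 lower in FBS, against 26% and 26.8% of all genes.

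Some paralogs of the 10 genes were rare in LNCaP. *FHL3* was at 3.34 ± 0.419 TPM in CSS and rose by 1.35 ± 0.14 with EGF and 1.31 ± 0.14 with NRG-1 for 4 h. Mean levels of the muscle actins *ACTA1* and *ACTG2* were 0.0725 and 0.31 TPM in CSS. They were 0.76 and 1.05 TPM with EGF for 1 h and 0.32 and 0.57 TPM with NRG-1 for 1 h. *NOV*, another CCN gene, was at 1.52 ± 0.545 TPM in CSS. Of 5 paralogs tested, 2 rose at 1 h with each ligand, against 6% (EGF) and 4.45% (NRG-1) of all genes. At 4 h 3 rose with each ligand, against 24.6% and 21.6%, and 1 fell with NRG-1, against 21%. *ACTC1*, *FHL5*, *WISP1*, *WISP2* and *WISP3* had at most 3 counts in any library.

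The likeness of time courses was described by Pearson's r over the 8 group means of log2 CPM after centering on batch. The means share libraries, depth and a few large steps, so r is given without a test. Among the 10 genes *SRF* and *CTGF* were most alike (0.996), followed by *ACTB* and *TPM4* (0.990), *VCL* and *FLNA* (0.988) and *CYR61* and *CTGF* (0.987). *SRF* and *VCL* had r = 0.145. Over 12018 other genes with an average of at least 1 on the log2 CPM scale, those closest to *SRF* were *FOSB* (0.997), *CDC37L1* (0.997) and *AKIRIN2* (0.994). Those closest to *VCL* were *TNFRSF21* (0.998), *PALLD* (0.996), which encodes the actin-binding protein palladin, and *ESRRA* (0.995). For *CYR61* they were *TUFT1* (0.992), *LRIF1* (0.990) and *ZNF644* (0.989), and for *CTGF* they were *NR4A1* (0.998), *FOSB* (0.997) and *SRF*.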

How the data were processed

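RNA-Seq of 32 LNCaP libraries was analysed, 4 in each of 8 groups, and groups, batches and replicate numbers were taken from the sample labels. The authors deposited 1 table of RSEM expected counts and 1 table of TPM per gene. Per the labels, polyA RNA libraries were sequenced, and the submitters' processing notes name Trimmomatic 0.36, STAR 2.7.0f, RSEM and the build hg19. The expected counts were rounded to whole numbers, since 11.2% of the deposited values were not whole. A gene entered the tests if 3 or more libraries held 5 or more of its counts (16995 of 25498). The main test was edgeR's quasi-likelihood test (edgeR 4.0.16 in R 4.3.3) with TMM scaling over all 8 groups, with batch as a term and Benjamini-Hochberg adjustment over all genes tested. A gene passed at an adjusted P below 0.05, and a DEG also changed by more than 1 on the log2 scale. Log2 CPM used a prior count of 2, and CPM values are scaled by TMM. Library totals were 63822654 to 92401724, so counting error matters mainly for *CTGF* and *FHL2*, whose 95% counting intervals do not cover differences between replicates. Nothing in the labels says whether libraries of a group came from separate cultures, so the P values measure the spread between these libraries.

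Alternatives were DESeq2 1.42.0, DESeq2 size factors, limma 3.58.1 on log2(TPM + 1) or log2(TPM + 0.1), no filter or a minimum of 10 counts per library, leaving out the batch term, a replicate block, fits of each batch alone or of only the groups compared, *ACTB* and *ACTG1* summed, and leaving out each library. A batch-by-group interaction was added after the data were seen. Libraries with the same number in the same batch deviated together from their group means (r from 0.133 to 0.571 in 112 of 112 pairs, all above 0.1). Batch was left in these deviations, so batch differences alone can give such r. Within batches r was above 0.1 in 54 of 112 pairs, with each value counted 2 times because the 2 libraries of a set mirror each other. Whether the numbers pair the samples was thus not settled. The main fit used batch alone, and the replicate block was an alternative. On simulated counts for EGF at 1 h against CSS, edgeR found 199 of 200 changed genes with 10 false calls among 16762 genes. The simulated counts had no batch effect, and changes of 1 or 2 on the log2 scale were given to genes with a mean above 1 CPM. They do not cover smaller changes or genes nearly absent from CSS. The 10 genes and the pathway lists were chosen with earlier results of these data known. From each list, the passing genes with the 3 largest rises and 2 largest falls in a comparison could be named at an average log2 CPM of at least 1, with all SRF cofactors, *YAP1*, *WWTR1* and paralogs by level, of which 1 is not reported here. For *SRF*, *VCL*, *CYR61* and *CTGF* the 3 genes with the most similar group means were named. Promoter windows came from a RefSeq table of GRCh38.p14, a build other than that of the counts, and no coordinate was shared between them.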

Additional observations from a re-analysis of the deposited data

Results flagged for a closer look

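Each gene was checked in each group for a library far from the other 3. Of 80 sets of 4 libraries, 5 had one, where chance gives about 1 in 20, or 4. *SRF* was at 59.6 CPM in EGF 4 h batch 2 replicate 2 and at 50.1 CPM in NRG-1 5 min batch 2 replicate 2, in both cases the lowest of its group. *VCL* was at 153.7 CPM in the same NRG-1 5 min library, again the lowest. *FHL2*, which had few counts in these groups, was highest at 0.227 CPM in FBS batch 1 replicate 1 and at 0.224 CPM in EGF 5 min batch 2 replicate 2.

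As given above, the change from 1 h to 4 h differed between the ligands for 2 genes by the interaction test, which contains the 1 h difference between the ligands. The difference, EGF minus NRG-1, was -1.66 on the log2 scale for *CYR61* and -1.31 for *FHL2*.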

How the results depend on the processing

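No difference that passed the test changed its sign under the alternatives run. Of the 10 genes, the number that differed between FBS and CSS was 4, and it was 2 without the batch term and 2 in batch 2 alone. Between EGF and NRG-1 at 1 h it was 4, and it was 7 with the replicate block and 1 in batch 2 alone. Between the ligands at 4 h it was 1, and it was 0 when only these groups were fitted, 0 in batch 2 alone and 0 to 1 when 1 library was left out. For the interaction of ligand and time it was 2, and it was 1 with at least 10 counts in every library, a filter under which *FHL2* and *CTGF* were not tested, 1 without the batch term, 1 when only these groups were fitted, 0 in batch 2 alone, 4 with the replicate block and 1 to 3 when 1 library was left out. The cause of the other shifts was not tested. DESeq2 size factors and the absence of a filter ended or added no call among 170 results each, DESeq2 added 4, and the replicate block added 8 and ended none, among them *SRF* in FBS against CSS (adjusted *P* = 0.0367) and *TPM1* with EGF at 4 h against 1 h (adjusted *P* = 0.0128). Batch 2 alone ended 16 calls and added 2, with fewer samples. Limma on log2(TPM + 1) ended 6 and added 5. Depth limits *CTGF* outside the 1 h groups, where no library held more than 6 counts.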
